A study of Mus musculus with 2 samples.

Results

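The replication-dependent histone genes were the protein-coding genes of the GENCODE M1 annotation of mouse assembly mm9 whose symbols begin with Hist1h, Hist2h, Hist3h or Hist4h. This rule gave 67 of 22367 protein-coding genes. By locus, 55 of them carried a Hist1 symbol, 9 a Hist2 symbol, 2 a Hist3 symbol and 1 a Hist4 symbol. By protein, 6 encoded the linker histone H1, 19 encoded H2A, 18 H2B, 11 H3 and 13 H4.

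Chromatin accessibility around these genes was mapped by DNaseI-seq in NMuMG, an established line of mouse mammary epithelium grown from a normal gland. Nuclei were cut briefly with DNaseI, short DNA fragments were sequenced, and places where fragments pile up were called as peaks. Both groups went without serum and insulin for 6 h. One then received TGFβ1, a cytokine of the transforming growth factor β family, at 5 ng/ml for 2 h, and the other its BSA-containing carrier solution (vehicle) for the same 2 h. The question behind the comparison is whether TGFβ changes chromatin accessibility in epithelial cells within hours. Each condition was represented by 1 deposited peak list, although the series text speaks of duplicates. The spread between cultures is therefore unknown, and no test between conditions was possible. The lists hold no read depth, but the study's reporting summary gives the vehicle library more reads than the TGFβ library, and the part of this difference in the results was not tested.

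Core histones H2A, H2B, H3 and H4 form the protein spool of the nucleosome, and H1 binds the linker DNA between spools. Most of the supply for newly copied DNA comes from short genes without introns, grouped in clusters and transcribed mainly in S phase. Their mRNAs end in a conserved stem-loop instead of a poly(A) tail, and the stem-loop binding protein Slbp recognises it. NPAT, together with factors that read promoter elements such as the CCAAT box and the octamer, drives their transcription.

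Many of these genes lie head to head, with an H2A and an H2B gene sharing the short stretch between their starts. There were 13 head-to-head pairs of member genes with starts at most 1000 bp apart, all of an H2A and an H2B gene except Hist1h2bh with the H3 gene Hist1h3f. Stretches of 4 such pairs are shown because they cover the 3 outcomes seen in the data: an interval in both lists, in the TGFβ list alone and in neither. All are from mm9, 5′ to 3′ on the + strand, from the base after the start of the minus-strand gene to the base before the start of the plus-strand gene. Capitals mark the TATA box, searched as TATAAA, the box spelled CCAAT, and the octamer, searched as ATTTGCAT, on either strand. A CCAAT box on the other strand reads ATTGG here, and a TATA box there reads TTTATA.
Hist1h2bl-Hist1h2ai (both lists, chr13:21808013-21808280, + strand): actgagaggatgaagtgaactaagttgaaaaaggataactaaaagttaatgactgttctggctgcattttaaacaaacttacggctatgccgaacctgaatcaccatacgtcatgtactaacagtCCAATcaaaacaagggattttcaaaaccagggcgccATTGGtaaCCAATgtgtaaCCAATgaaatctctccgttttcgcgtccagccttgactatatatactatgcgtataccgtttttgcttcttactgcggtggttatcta
Hist1h2ac-Hist1h2bc (both lists, chr13:23775818-23776067, + strand): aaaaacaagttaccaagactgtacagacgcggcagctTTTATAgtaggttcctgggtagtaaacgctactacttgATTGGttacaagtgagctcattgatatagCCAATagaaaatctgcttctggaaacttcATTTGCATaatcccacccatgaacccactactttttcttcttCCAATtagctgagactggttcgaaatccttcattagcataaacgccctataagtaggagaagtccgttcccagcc
Hist1h2ae-Hist1h2bg (TGFβ list only, chr13:23663090-23663264, + strand): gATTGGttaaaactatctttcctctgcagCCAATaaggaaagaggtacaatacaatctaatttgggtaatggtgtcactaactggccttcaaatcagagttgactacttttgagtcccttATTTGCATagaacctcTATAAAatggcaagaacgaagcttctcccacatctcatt
Hist1h2ak-Hist1h2bn (neither list, chr13:21845777-21845991, + strand): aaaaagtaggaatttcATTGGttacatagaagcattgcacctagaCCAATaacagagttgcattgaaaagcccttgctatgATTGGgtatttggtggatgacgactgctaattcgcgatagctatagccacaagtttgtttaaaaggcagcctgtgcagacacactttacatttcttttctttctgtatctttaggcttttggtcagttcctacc
The stretch of Hist1h2ac and Hist1h2bc, which had an interval in both lists, and that of Hist1h2ae and Hist1h2bg, which had one in the TGFβ list only, each carry a TATA box, CCAAT boxes and an octamer. The stretch of Hist1h2ak and Hist1h2bn, with no interval, carries 3 CCAAT boxes. A TATA box of that pair lies within the 50 bases after the annotated start of Hist1h2ak and thus outside the printed stretch. The stretch of Hist1h2bl and Hist1h2ai had an interval in both lists with CCAAT boxes alone, so these letters did not sort the pairs by outcome.

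A gene is called open in a list when at least 1 interval overlapped the gene or the 1000 bp on either side of its annotated start by 1 bp or more. An interval is a distinct stretch of the list, repeated rows being counted as 1. The word says that a peak was called there, and a gene without one may still have carried signal below the authors' threshold. In a bulk assay, a site open in few cells and a site weakly open in all cells cannot be told apart.

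Of the 67 histone genes, 38 were open in the vehicle list (56.7%, 95% exact binomial interval 44.0 to 68.8) and 41 in the TGFβ list (61.2%, 48.5 to 72.9). The same rule called 49.7% of all protein-coding genes open in the vehicle list and 51.6% in the TGFβ list. These binomial intervals cover the counting of genes only, and neighbours that share a peak are not independent. All 38 genes open under vehicle were also open after TGFβ. No gene was open in the vehicle list alone (2.37% of all protein-coding genes were), and 3 were open in the TGFβ list alone (4.28% of all), which leaves 26 open in neither. Over all protein-coding genes 53.9% were open in either list. The split between lists moved with how the lists were filtered. With the TGFβ list cut by score to the length of the vehicle list, 38 genes were open under vehicle and 37 after TGFβ, of which 34 were open in both, 4 in the vehicle list alone and 3 in the TGFβ list alone. With only intervals at or above the median score of their own list, 19 were open in both, 2 in the vehicle list alone and 14 in the TGFβ list alone. These filters were not applied to all protein-coding genes. Whether the filtered counts differ from those of other genes is therefore not known.

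The shares by locus differed in size but rest on few genes outside Hist1. Of the 55 genes with a Hist1 symbol, all on chromosome 13, 33 were open in the vehicle list and 36 in the TGFβ list. Hist1h2al, which lies far from the cluster of the others, is counted among them and was open in neither list. In Hist2, on chromosome 3, 4 of 9 genes were open in both lists. In Hist3, on chromosome 11, Hist3h2ba was open in neither list and Hist3h2a in both, with an interval of 744 bp (score 1000) under vehicle and 813 bp (score 934) after TGFβ. Hist4h4, the single Hist4 gene, had its nearest interval 3684 bp from the start in the vehicle list and 3653 bp in the TGFβ list, and was not open.

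**Figure D1:**
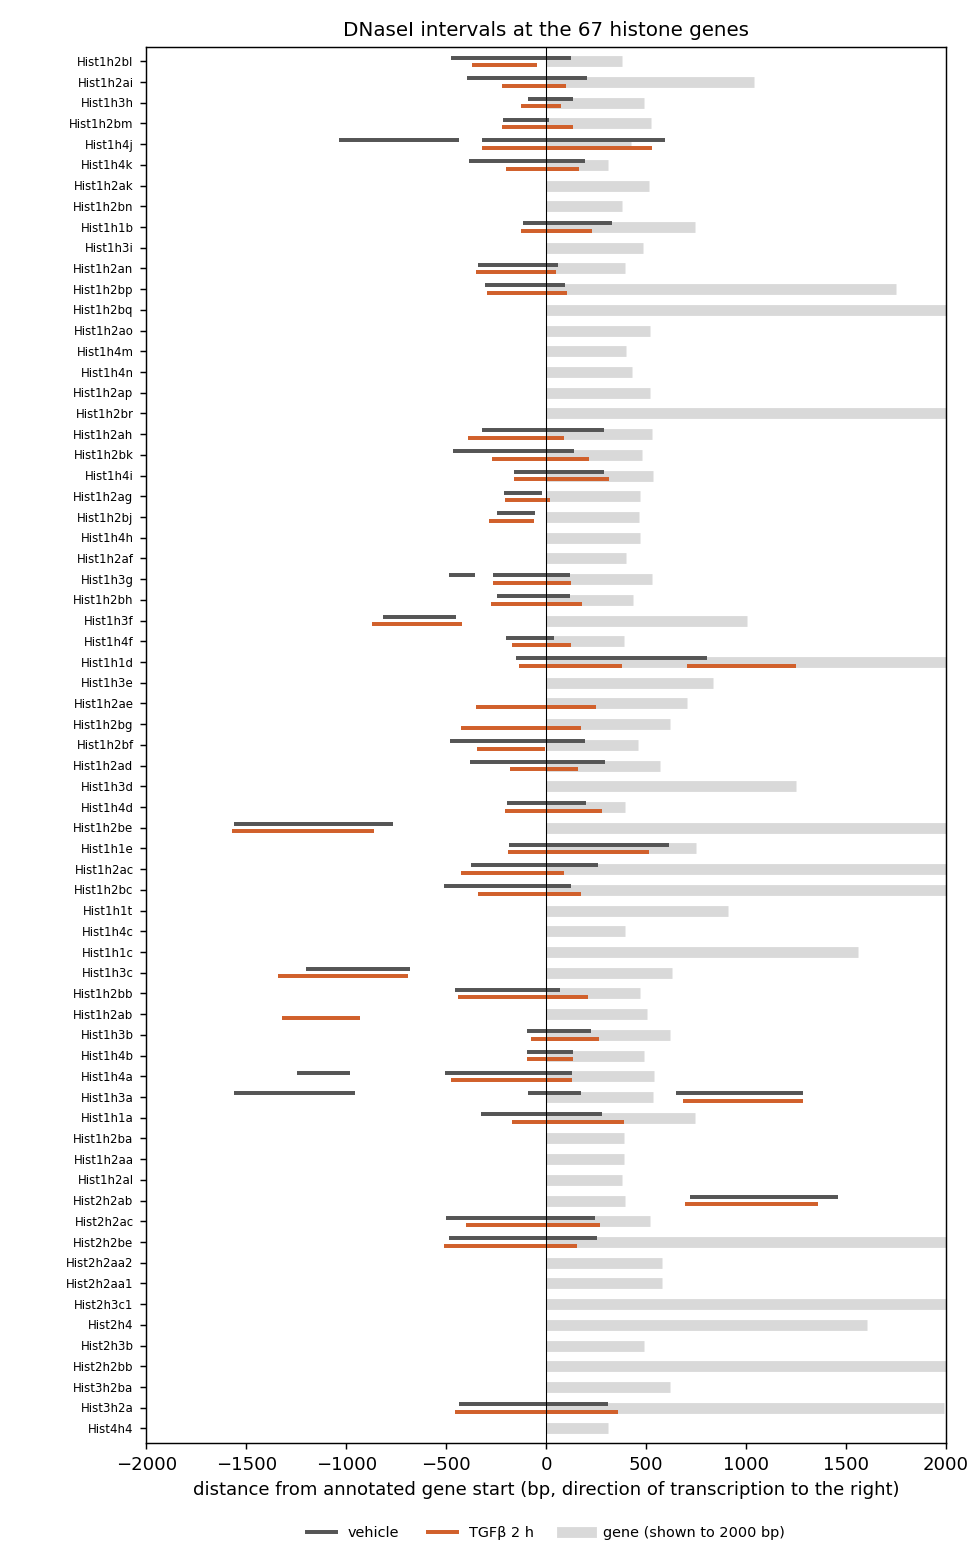
Intervals at each of the 67 histone genes, by distance in bp from the annotated start, with transcription running to the right; dark grey bars are vehicle intervals, orange bars TGFβ intervals and light grey bars the genes, cut at 2000 bp. Paired dark grey and orange bars cross the start of most open genes, Hist1h2ae, Hist1h2bg and Hist1h2ab have orange bars only, and the 26 genes open in neither list have no bar, since only intervals that met the rule are drawn; the interval of Hist2h2bb lies beyond the plotted range.

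The genes for H1, the linker histone, were open at 4 of 6. Hist1h1a, Hist1h1b, Hist1h1d and Hist1h1e each had an interval over the start in both lists. Hist1h1d (chr13:23646901-23650721) carried the widest interval of any histone gene, 953 bp in the vehicle list, and this one interval met 2 separate TGFβ intervals of 519 and 547 bp. At Hist1h1e the interval was 800 bp in the vehicle list and 708 bp in the TGFβ list. The H1 genes without an interval were Hist1h1c, a somatic form, and Hist1h1t, the testis form. The nearest intervals to their starts lay 7473 and 11487 bp away in the vehicle list.

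Among the H2A genes, whose proteins pair with H2B in the nucleosome, 9 of 19 were open under vehicle and 11 after TGFβ. For H2B the counts were 12 and 13 of 18. The 3 genes that were open in the TGFβ list alone all belonged to these types. Hist1h2ae and Hist1h2bg, a head-to-head pair, lay under one TGFβ interval of 602 bp (chr13:23662840-23663441) that held the score ceiling of 1000. The nearest vehicle interval was 2781 bp from the start of Hist1h2ae and 2605 bp from that of Hist1h2bg. This pair was therefore the clearest case of an interval present in the TGFβ list and absent from the vehicle list.

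The remaining case, Hist1h2ab, had its interval close to the edge of the window. Its TGFβ interval of 391 bp (chr13:23841637-23842027, score 947) ended 930 bp before the start, while no vehicle interval overlapped it. The nearest vehicle interval, 1082 bp on the other side of the start, was the shared interval of Hist1h3b. Hist1h2af and Hist1h3d lay just beyond the 1000 bp limit, at 1029 and 1087 bp from a vehicle interval and 1249 and 1220 bp from a TGFβ interval.

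By this rule, head-to-head pairs shared their status without exception. Of the 13 pairs, 8 were open on both sides in both lists, 1 (Hist1h2ae and Hist1h2bg) in the TGFβ list alone and 4 in neither. The 4 were Hist1h2ak with Hist1h2bn, Hist1h2bq with Hist1h2ao, Hist1h2ap with Hist1h2br, and the testis forms Hist1h2ba with Hist1h2aa. The rule's window of 1000 bp is wider than the distance between starts in each of these pairs, so one interval usually counted for both genes. Within 100 bp of the start, Hist1h2bh had an interval in both lists and its partner Hist1h3f in neither. In the vehicle list, 38 open genes lay under 29 intervals, of which 16 counted for 1 gene, 12 for 2 and 1 for 3. In the TGFβ list, 41 open genes lay under 29 intervals, with 17, 11 and 1 in the same classes.

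The shared intervals of H2A and H2B pairs ranged from narrow to wide. That between Hist1h2ag and Hist1h2bj was 188 bp under vehicle and 223 bp after TGFβ, the narrowest of these. That between Hist1h2an and Hist1h2bp was 401 and 400 bp, so almost the same in both lists. For Hist1h2ah with Hist1h2bk it was 608 and 483 bp, and for Hist1h2ac with Hist1h2bc it was 635 and 516 bp. Both of the last were narrower in the TGFβ list and at the score ceiling in that list only. Outside such pairs, Hist1h2bb had an interval of 523 bp under vehicle and 651 bp after TGFβ, and Hist1h2bm one of 233 and 359 bp. Hist1h2bh, which lies head to head with the H3 gene Hist1h3f, had one of 366 and 454 bp.

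The interval that counted for 3 genes was in Hist2. It ran over the stretch between Hist2h2ac and Hist2h2be (chr3:96024558-96025301 and 744 bp in the vehicle list, chr3:96024532-96025201 and 670 bp in the TGFβ list), at the score ceiling in both. The third gene, Hist2h2ab, was called open only because its start lay 719 bp from this interval in the vehicle list and 693 bp in the TGFβ list. Hist2h2bb, annotated as a gene of 9281 bp, was called open by an interval inside the gene 8024 bp from its start in the vehicle list and 8088 bp in the TGFβ list. Hist2h2aa1, Hist2h2aa2, Hist2h3b, Hist2h3c1 and Hist2h4 had no interval. Only Hist2h2ac and Hist2h2be of the 9 Hist2 genes had an interval at the start itself.

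Of the H3 genes, 6 of 11 were open in both lists, but fewer had an interval at the start. Hist1h3b, Hist1h3g and Hist1h3h did so in both lists. Hist1h3a did so in the vehicle list only, through a 266 bp interval (chr13:23854080-23854345, score 651) with no TGFβ counterpart. In the TGFβ list it was open through an interval 683 bp from the start, beside its neighbour Hist1h4a. Hist1h3c and Hist1h3f were open through intervals over the starts of their neighbours Hist1h2bb and Hist1h2bh, 678 and 450 bp from their starts in the vehicle list. The annotated start of Hist1h3f lies 433 bases before its coding sequence. Hist1h3d, Hist1h3e, Hist1h3i, Hist2h3b and Hist2h3c1 had none.

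H4 genes had an interval at the start in both lists or none at all. Hist1h4a, Hist1h4b, Hist1h4d, Hist1h4f, Hist1h4i, Hist1h4j and Hist1h4k were open, 7 of 13. Hist1h4c, Hist1h4h, Hist1h4m, Hist1h4n, Hist2h4 and Hist4h4 were not. Hist1h4j (chr13:21826903-21827329) lay wholly inside its interval in both lists, which was 917 bp wide under vehicle and 853 bp after TGFβ, the widest histone interval of the TGFβ list. The intervals of the others ran from 243 bp (Hist1h4f) to 634 bp (Hist1h4a) under vehicle, and after TGFβ from 294 to 604 bp at these same genes, if Hist1h4b is set aside. Hist1h4b had the same interval in both lists to the base (chr13:23848710-23848942, 233 bp, score 1000). The 100 bases before the start of Hist1h4b, Hist1h4d and Hist1h4c are shown to set open H4 genes beside one without an interval, each on its own strand in mm9 with TATA and CCAAT boxes in capitals.
Hist1h4b (both lists, chr13:23848706-23848805, + strand): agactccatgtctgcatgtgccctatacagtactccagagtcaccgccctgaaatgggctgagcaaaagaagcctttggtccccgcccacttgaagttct
Hist1h4d (both lists, chr13:23673367-23673466, + strand): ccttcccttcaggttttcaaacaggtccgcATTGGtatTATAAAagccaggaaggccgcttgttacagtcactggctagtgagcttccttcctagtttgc
Hist1h4c (neither list, chr13:23790324-23790423, - strand): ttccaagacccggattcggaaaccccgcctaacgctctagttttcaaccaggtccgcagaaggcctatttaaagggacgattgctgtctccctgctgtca
Hist1h4d has both elements within these bases, whereas neither Hist1h4b, which was open, nor Hist1h4c, which was not, has either.

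With the window narrowed to 100 bp of the start, where the gene's own promoter lies, 33 genes were open in the vehicle list (49.3%) and 34 in the TGFβ list (50.7%), against 40.8% and 40.5% of all protein-coding genes. In this window 32 genes were open in both lists, Hist1h3a in the vehicle list alone, Hist1h2ae and Hist1h2bg in the TGFβ list alone, and 32 in neither. The 6 genes that were open by the wide rule and not here were Hist2h2ab, Hist2h2bb, Hist1h3f, Hist1h3c, Hist1h2ab and Hist1h2be. The record of Hist1h2be begins 35168 bases before its coding sequence, and its interval was that of Hist1h1e. Here 35 histone genes (52.2%) were open in either list, and the share over all protein-coding genes was 42.6%.

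The intervals sat slightly before the annotated start. In the vehicle list, the share of histone genes with an interval over a given base was highest from 90 to 60 bp before the start, at 49.3%. In the TGFβ list it was highest 70 bp before the start, at 50.7%. Over all protein-coding genes the highest share was 40.1% at 30 bp after the start in the vehicle list and 39.5% at 20 bp after it in the TGFβ list. The midpoint lay before the start for 23 of the 33 genes in the vehicle list (median offset -74 bp) and for 25 of the 34 in the TGFβ list (median -49 bp). An interval shared by a head-to-head pair counted once for each gene, and one centred between the starts lies before both. The records of 9 of the 67 genes begin at the first coding base, so their annotated start need not be where transcription starts.

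The coverage also fell away more steeply on the gene side than it did across the genome. At 500 bp after the start, 4.48% of histone genes in the vehicle list and 2.99% in the TGFβ list were covered, against 23.1% and 17.6% of all protein-coding genes. At 500 bp before the start the histone shares were 5.97% and 2.99%, against 12.9% and 9.98%. Histone genes are short, with a median length of 530 bp, so that a base 500 bp after the start often lies near the gene end.

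**Figure D2:**
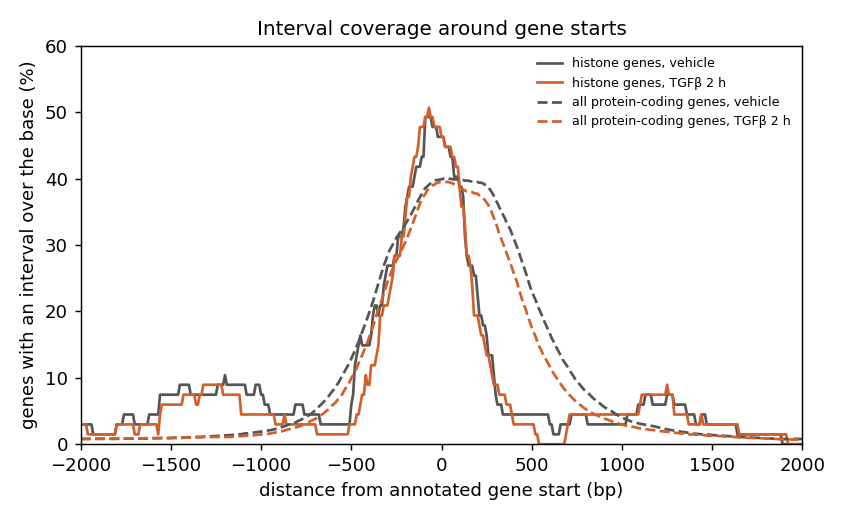
Share of genes (%) with an interval over each base, by distance from the annotated start in bp; solid lines are the 67 histone genes, dashed lines all protein-coding genes, dark grey vehicle and orange TGFβ. The histone lines peak at 49.3% and 50.7% just before the start and fall to 4.48% and 2.99% at 500 bp after it, where the dashed lines are at 23.1% and 17.6%.

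Histone intervals had a lower median width than the intervals of each list as a whole. Their median was 523 bp in the vehicle list (29 intervals, range 133 to 953, 95% interval of the median 366 to 634) and 473 bp in the TGFβ list (29 intervals, range 197 to 853, 359 to 561). The medians over all 17784 vehicle and 22600 TGFβ intervals were 770 and 621 bp, both above those ranges for the median. The histone medians of both lists lay within each other's ranges. The narrowest was a 133 bp vehicle interval beside Hist1h3g, and in the TGFβ list the 197 bp interval of Hist1h3h.

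Most histone intervals had a counterpart. In the vehicle list, 3 of 29 had no overlapping TGFβ interval (10.3%, 2.19 to 27.4), compared with 17.6% of all vehicle intervals. In the TGFβ list, 2 of 29 had no overlapping vehicle interval (6.90%, 0.846 to 22.8), compared with 33.7% of all. The whole lists include intervals far from any gene, so these shares are not measured over like sites. Counted by gene, 4.48% of histone genes were open in the TGFβ list alone, against 4.28% of all protein-coding genes by the same rule. By the window of 1000 bp around the start alone the shares were 4.48% and 2.17%. The 3 vehicle-only intervals lay near Hist1h4j (598 bp, score 900), near Hist1h3g (133 bp, score 545) and at Hist1h3a (266 bp, score 651). Hist1h4j and Hist1h3g also held a shared interval at the start, so that their status did not rest on these. The 2 TGFβ-only intervals were those of Hist1h2ae with Hist1h2bg and of Hist1h2ab described above.

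Where 1 vehicle interval met exactly 1 TGFβ interval, the widths could be set side by side. Of 25 such pairs, 14 were narrower in the TGFβ list (56.0%, 34.9 to 75.6), 10 were wider and 1 was equal, and the median ratio of TGFβ to vehicle width was 0.953. Over all 13978 pairs in the lists, 70.9% were narrower after TGFβ and the median ratio was 0.906, so the histone share lay below that of the whole with an interval that includes it.

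The ratios spread widely around their median. The interval between Hist1h2bf and Hist1h2ad went from 676 bp to 342 bp (ratio 0.506), that between Hist1h2bl and Hist1h2ai from 604 to 323 bp (0.535), and that of Hist1h4k from 581 to 364 bp (0.627). In the other direction, the interval of Hist1h2bm went from 233 to 359 bp (1.54). With 1 list a condition, whether such a change exceeds the difference between replicate cultures is not known.

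**Figure D3:**
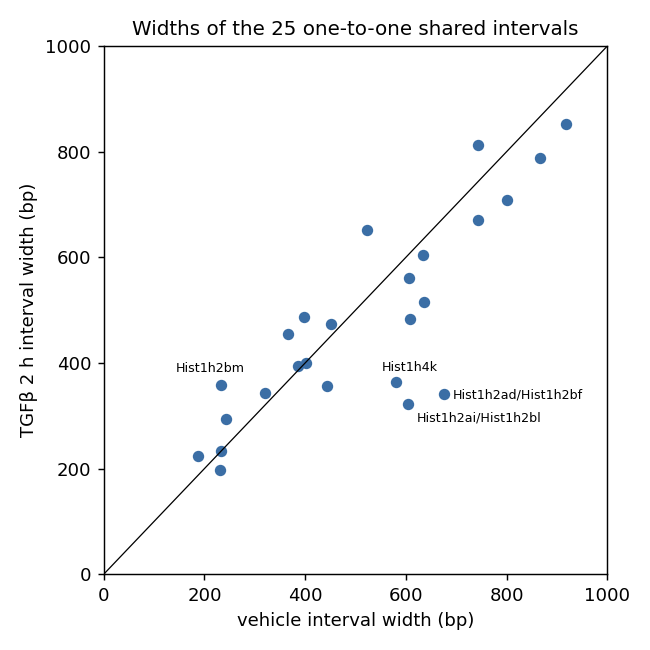
Width in bp of the TGFβ interval against that of its vehicle counterpart for the 25 one-to-one pairs at histone genes; the line marks equal width and the pairs with the most extreme ratios are named. The points scatter on both sides of the line, 14 below it, 10 above and 1 on it, with Hist1h2ad and Hist1h2bf lowest in ratio (0.506) and Hist1h2bm highest (1.54).

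The authors' score, used here only as a rank within its own list, reached the ceiling of 1000 for 14 of 29 vehicle intervals (48.3%) and 18 of 29 TGFβ intervals (62.1%). Over all intervals the shares were 53.2% and 44.3%. Of the 25 pairs, 11 were at the ceiling in both lists, among them those of Hist1h4b, Hist1h4j and Hist1h1e. The pairs at the ceiling under vehicle alone were Hist3h2a, and Hist1h2ad with Hist1h2bf. Those at the ceiling after TGFβ alone were 5: Hist1h2ah with Hist1h2bk, Hist1h4f, Hist1h2ac with Hist1h2bc, Hist1h3b, and Hist1h3a with Hist1h4a. Scores at the ceiling cannot be ranked, and scores of separate lists are not on a common scale.

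Near-identical copies were a feature of several genes without an interval. To describe them, every 50-base word within 250 bp of a start was counted in mm9, on both strands. In 9 histone genes fewer than 50% of these words occurred once: Hist2h2aa1, Hist2h2aa2, Hist2h3c1, Hist1h2bq, Hist1h2ao, Hist1h2ap, Hist1h2br, Hist1h4m and Hist1h4n. None of the 9 was open. Among all protein-coding genes, 1299 had such starts, and 62 of them (4.77%) were open in either list, compared with 57.0% of the 21068 others.

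The most extreme case is an inverted repeat of 5736 bp in Hist1. It holds Hist1h2bq, Hist1h2ao and Hist1h4m on one side (chr13:21898281-21904016), and Hist1h2br and Hist1h2ap with most of Hist1h4n on the other (chr13:21923664-21929399). The 2 sides differ at 1 base (99.983% identity). The stretch between the H2B and the H2A gene is shown because it is the same sequence in both copies, read on the + strand in one and on the - strand in the other, with CCAAT boxes in capitals.
Hist1h2bq-Hist1h2ao (neither list, chr13:21902069-21902235, + strand): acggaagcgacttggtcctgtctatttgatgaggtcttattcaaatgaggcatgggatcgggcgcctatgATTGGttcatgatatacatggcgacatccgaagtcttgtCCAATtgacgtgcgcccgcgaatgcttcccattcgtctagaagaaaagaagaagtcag
Hist1h2br-Hist1h2ap (neither list, chr13:21925445-21925611, - strand): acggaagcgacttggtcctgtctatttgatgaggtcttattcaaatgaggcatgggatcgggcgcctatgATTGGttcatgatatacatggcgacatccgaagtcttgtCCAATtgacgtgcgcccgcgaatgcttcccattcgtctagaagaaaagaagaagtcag
The 167 bases match without a mismatch, and no 50-base word around the 4 starts beside them occurs once. The 578 bp records of Hist2h2aa2 and Hist2h2aa1 were likewise identical, and the record of Hist2h3c1 overlaps that of Hist2h2aa1. How reads with several equal positions were handled for DNaseI-seq is not given in the sources used here, and its part in the missing intervals was not tested.

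Copied starts were found in part of the set without an interval. Of the 26 genes without an interval, 17 had at least 50% of their words once. Hist1h1t, Hist1h2aa, Hist1h2ba and Hist4h4 were at 100%, and the first 3 of these are testis forms. Among the 58 histone genes with at least 50%, 41 (70.7%) were open by the wide rule and 35 (60.3%) within 100 bp of the start, against 57.0% and 45.0% of all protein-coding genes in that class. The median share of words found once was 79.9% in open genes (range 55.1 to 100) and 66.7% in the others (0 to 100).

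**Figure D4:**
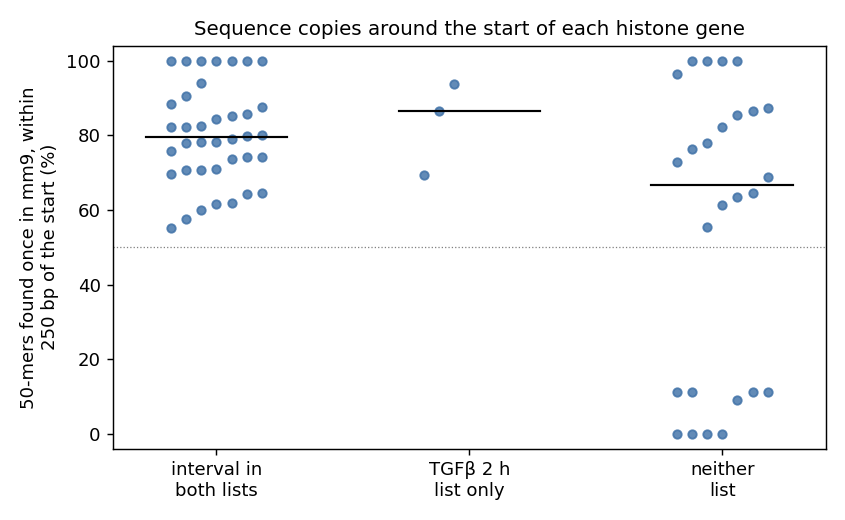
Share (%) of 50-base words within 250 bp of the start that occur once in mm9, for histone genes with an interval in both lists, in the TGFβ list only and in neither; each point is a gene, the solid line the group median and the dotted line 50%. The 9 genes below the dotted line are all in the group without an interval, and 17 genes of that group lie above it.

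The promoters, read here from 250 bases before to 50 after the start, were rich in the elements known from histone genes. The CCAAT box was present in 57 of 67 (85.1%), compared with 37.9% of all protein-coding promoters. It was in all 19 H2A and all 18 H2B promoters and in 4 of 13 H4 promoters. The TATA box occurred in 38 (56.7%, against 13.4%). The octamer, the element read by POU factors such as Oct-1, occurred in 15 (22.4%, against 1.73%), 7 of them H2A and 8 H2B genes. Matches were exact and taken on both strands, and a match describes letters and not a bound site.

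Motif content can be set beside the intervals. Of the 35 genes with an interval within 100 bp of the start, 24 (68.6%) held a TATA box, and of the 32 others 14 (43.8%) did. For the octamer the counts were 11 (31.4%) and 4 (12.5%). For the CCAAT box the shares were 85.7% and 84.4%. The exact E2F word TTTGGCGC was in none of the 67 promoters (0.680% of all promoters hold it). Other spellings of the E2F site were not searched, and TTTCGCGC, for example, stands in the promoter of Hist1h2an. The absence of the exact word therefore does not mean that E2F-type sites are lacking. The word TGANTCA, searched for AP-1 with any base at N, was in 3, which is 4.48% against 6.93% of all promoters. They were Hist1h2bl, Hist1h2ai and Hist1h1b, and each match had A or T at N. The usual AP-1 site has C or G there, so these shares count a looser word than that site. Hist1h2bl and Hist1h2ai share the stretch printed above, so that they hold the same copy of the word. Because the 9 genes with copied starts are all in the group without an interval, these shares are not independent of the copies.

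Base composition around the start was similar in open and other histone genes. The median GC content within 250 bp of the start was 52.7% in genes open by the wide rule and 53.8% in the others, and 57.1% over all protein-coding genes. The observed over expected frequency of CpG, which is low in most of the genome, had medians of 0.892 and 0.943, against 0.588 over all protein-coding genes.

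The mRNA stem-loop was searched by its consensus, on the strand of the gene, in the gene and the 200 bases after it and was found at 60 of 67 genes. The forms are shown 5′ to 3′ on the strand of the gene because they tie the set to its shared mRNA end, with the 4 bases of the loop in capitals.
Form in 40 genes, of types H1, H2A, H2B and H3: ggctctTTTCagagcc
Form in 9 genes, of the same 4 types: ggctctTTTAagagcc
Form in 8 genes, all H4: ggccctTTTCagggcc
Form in 2 genes, both H4: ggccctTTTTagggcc
Form in Hist2h2ac alone: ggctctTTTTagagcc
The stem thus read differently in H4 and in the other types. The stem-loop did not follow the intervals: it was found at 35 of the 41 open genes and at 25 of the 26 others. Within 100 bases of the annotated gene end it was found at 39 histone genes and at 0 of the 22300 other protein-coding genes. The genes without a match were Hist2h2be, Hist1h4j, Hist1h2an, Hist1h3g, Hist1h4b, Hist1h4a and Hist1h2al.

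The Hist1 cluster shares its region with other genes, which were mostly not open. From the first to the last Hist1 gene on chr13:21807632-24026720, a span of 2219 kb that leaves out the distant Hist1h2al, there were 50 intervals in each list, and 26 of them (52.0%) counted for histone genes in each. The region holds 48 other protein-coding genes. By the window of 1000 bp around the start alone, 6 of them (12.5%) were open in the vehicle list and 5 (10.4%) in the TGFβ list, against 55.2% and 59.7% of the histone genes and 43.2% and 43.5% of all protein-coding genes. Of these 48 genes, 33 are vomeronasal receptor genes, which serve pheromone sensing and lie in a gap of 1490 kb between Hist1h2bj and Hist1h4h. They had no interval in either list, so the low shares of the region's other genes rest largely on them. Among the open ones, Gm17658 overlapped the interval of Hist1h4d. Hfe, an iron regulator next to Hist1h4c, was open in the vehicle list alone by the window around the start.

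Other gene sets place these shares, by the window of 1000 bp around the start alone unless stated. Other protein-coding genes with a single exon, 2784 in all, were open at the start in 9.09% under vehicle and 9.59% after TGFβ. Of the 67 histone records, 61 also have a single exon. The kinds of genes in the single-exon set were not examined, so the contrast is not one of exon number alone. Histone genes named as replication-independent were mostly variant histones, with H2afx, which is also known to give a stem-loop mRNA. By this window 7 of 10 were open in both lists, and H2afy2, H3f3b and H1fx were not. By the wide rule 9 of 10 were open under vehicle and 8 of 10 after TGFβ. Regulators of histone genes and factors of histone mRNA 3′ processing were open at 12 of 13 in both lists by this window. Npat and Slbp were among them, and Zfp473 was the exception. By the wide rule all 13 were open in both lists. Neither set held a gene that was open at the start in 1 list alone.

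**Figure D5:**
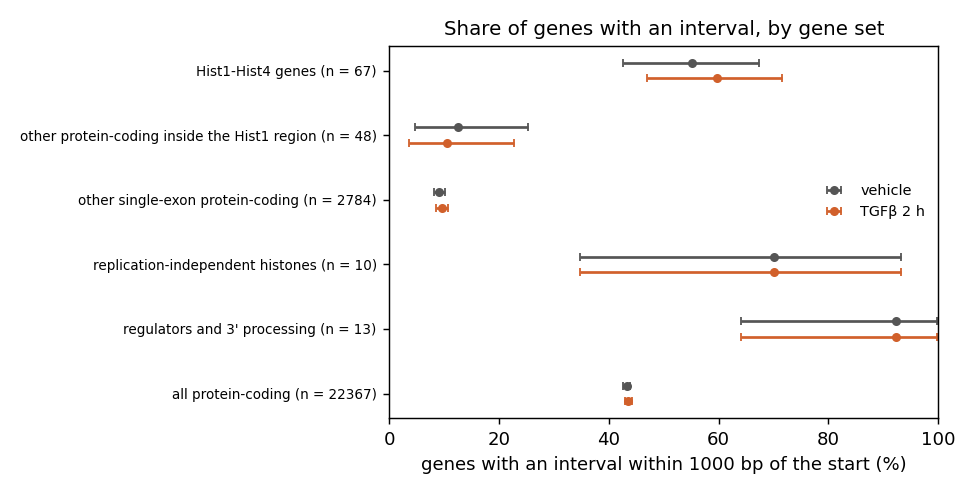
Share (%) of genes with an interval within 1000 bp of the start in each gene set, vehicle in dark grey and TGFβ in orange; bars are exact binomial 95% intervals that cover the counting of genes only. Histone genes are at 55.2% and 59.7%, other genes inside the Hist1 region at 12.5% and 10.4%, and all protein-coding genes at 43.2% and 43.5%.

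The cell label was checked against markers by the same start window. Of 8 epithelial markers, Cdh1, Krt8 and Krt18 were open in both lists and Epcam, Krt7, Krt19, Cldn3 and Cldn4 in neither. That is 37.5%, against 43.2% of all protein-coding genes in the vehicle list and 43.5% in the TGFβ list. Of 8 markers of other cell types, Gfap was open in the vehicle list and none in the TGFβ list. By the wide rule, 4 of 8 epithelial markers were open in each list. For the other cell types, 3 of 8 were open under vehicle and 2 of 8 after TGFβ. These few markers do not settle the cell label.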

How the data were processed

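DNaseI-seq peaks of 2 samples, grouped by their titles, were analysed, with 1 list per condition. According to the methods, the authors aligned reads to mm9 and used their ATAC-seq pipeline with DNaseI-specific options, which are not given in the sources used here. Per the labels, the tools were MACS2 2.1.2 and deepTools. The deposited score is the authors' whole number from 540 to 1000 and was used only as a rank. The lists hold no read depth. Read numbers are in the study's reporting summary, which gives more for vehicle, and were not used here. Rows that repeat an interval, whose meaning is not given, were collapsed to 1.

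Intervals were overlapped (minimum 1 bp) with GENCODE M1 genes on mm9 (NCBIM37) in Python 3.11.15 with numpy 2.4.6, scipy 1.17.1, pysam 0.24.0, numba 0.67.0 and samtools 1.23.1. Figures were drawn with matplotlib 3.10.9. Coordinates are 1-based. Shares carry Clopper-Pearson 95% intervals. The scripts were tested on simulated data. H1f0 could not be matched by symbol and was left out of the replication-independent histones.

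The gene set and the lists were chosen with earlier results of these data known. The genes named were all members of Hist2, Hist3 and Hist4, those open in 1 list or in neither, the testis forms, those under the widest, narrowest and most shared intervals, those with the most or fewest single-copy words, and the comparison genes that differed between lists or were open in neither. Other members, the region's genes and the pairs with extreme ratios were named after their values were seen. Alternatives changed the window, start, score filter, list length, shortest interval, row counting, overlap and membership.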

Additional observations from a re-analysis of the deposited data

How the results depend on the processing

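With 1 list per condition there was no replicate to leave out. No paired analysis was possible because vehicle and TGFβ were 1 list each and no result came from a test. Of 93 alternative values, 21 moved. All were taken for the histone genes only, without the share over all protein-coding genes. A count moved when it differed from the main one by over 1.5 times or when only one of them was 0, and a median width or share when it left the 95% interval of the main value. These are single counts, widths and shares, which carry no sign, but the order of the lists did change. At equal list length 37 genes were open after TGFβ and 38 under vehicle (main counts 41 and 38), with 3 open after TGFβ alone and 4 under vehicle alone (3 and 0). List-only intervals, 3 in vehicle and 2 in TGFβ, turned to 1 and 9 with the score filter and to 0 and 2 when intervals up to 1000 bp apart counted as shared, and were level at 3 each with a reciprocal overlap of 50%, 5 each by row and 2 each without intervals under 150 bp. The median widths and the share of pairs narrower after TGFβ stayed within their intervals throughout.

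With intervals at or above the median score of their list, 21 genes were open under vehicle, 19 in both lists, 2 in the vehicle list alone and 14 in the TGFβ list alone, with 1 vehicle-only and 9 TGFβ-only intervals. That median is the ceiling in the vehicle list, where 53.2% of intervals sit at 1000, and lies below it in the TGFβ list, where 44.3% do. The main count of 3 genes open after TGFβ alone thus moves with the score filter. Limiting the set to 39 genes with a stem-loop at the gene end left 22 open under vehicle, 23 after TGFβ, 22 in both lists, 1 in the TGFβ list alone and 16 in neither, which follows from testing fewer genes. The genes open in the vehicle list alone numbered 3 by gene span only, 1 within 100 bp of the start and 4 when the longer list was cut to the length of the shorter. Vehicle-only intervals numbered 0 when intervals up to 1000 bp apart counted as shared, 5 when every row was counted and 6 at equal list length, and TGFβ-only intervals 5 when every row was counted. The cause of these moves was not tested.

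Further alternatives were chosen after seeing the data. With only genes of at least 50% single-copy words, 17 were open in neither list, which follows from leaving out 9 genes. With only the ceiling intervals of a list, each set against the full other list, there were 0 vehicle-only and 1 TGFβ-only intervals.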
